A study of Caenorhabditis elegans with 24 samples.

Results

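The genes described here, 8 in all, make or respond to the dafachronic acid steroid hormones of Caenorhabditis elegans, all of them known from the control of dauer, the larval arrest stage. They are the sterol transport genes ncr-1 and ncr-2, the synthesis genes daf-36, dhs-16, hsd-1 and daf-9, the hormone receptor gene daf-12 and its corepressor gene din-1. The genes were chosen by name and role, with earlier results of these data known. They were matched by WormBase identifier to the 2 expression tables of the series. One has 19718 genes for the daf-2 background and one 19320 genes for the wt background, and the tables share 18489 genes. Of the 8 genes, 7 had values in both tables, and hsd-1 was not analysed here. Whole animals were collected on the first day of young adulthood after growth at 20 °C on Escherichia coli OP50-1, and polyadenylated RNA was measured in 4 libraries of each of 6 genotypes. In the daf-2 background these were daf-2(e1370);bcl-11(bon125), daf-2(e1370);bcl-11(bon144) and their control, daf-2(e1370). In the wt background they were bcl-11(bon125), bcl-11(bon144) and wt (N2). The e1370 allele reduces the function of DAF-2, the worm's insulin/IGF-1 receptor. The bcl-11 gene encodes a C2H2 zinc finger transcription factor, and its Cas9-made alleles are hypomorphs that still give a product: bon125 is a frameshift variant that keeps the zinc fingers and adds a stretch of residues, and bon144 is an in-frame change. All mutants carry their alleles in every cell, and no gene of the steroid pathway was itself mutated.

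Worms cannot make sterols and take up cholesterol from their food. NCR-1 and NCR-2, homologues of the human Niemann-Pick C1 protein, move cholesterol inside cells. The Rieske oxygenase DAF-36 starts hormone synthesis by turning cholesterol into 7-dehydrocholesterol, short-chain dehydrogenases such as DHS-16 and HSD-1 act in the middle steps, and the cytochrome P450 DAF-9 makes the finished dafachronic acids. With hormone bound, the nuclear receptor DAF-12 promotes reproductive growth, and without it DAF-12 joins the corepressor DIN-1 and promotes dauer formation. Insulin signalling through DAF-2 and TGF-beta signalling through DAF-7 both act upstream of this pathway in larvae, and in adults the pathway is known for its part in fat storage and in the longevity of animals without a germline.

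Values are regularized log (rlog) levels as deposited, on a log2 scale, and the method draws the differences of weakly expressed genes toward 0. Each table was normalised by itself, so levels were tested within a table. The sole tests to draw on both tables compared the fold change of an allele in one background with its fold change in the other. Tests with limma took in the genes whose rlog averaged 3 or more across a table's 12 libraries, which left 14169 genes in the daf-2 background and 13459 in the wt background. A gene was called when its Benjamini-Hochberg adjusted p was under 0.05 and its change exceeded 1.5-fold. Of the 7 measured steroid genes, all were tested in the daf-2 background and 6 in the wt background, since dhs-16 had a mean rlog of 2.25 there. Read depth is unknown, because the deposited values hold no counts.

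The labelled animals held the tissues of an adult. Mean rlog of oocyte and eggshell genes was 12.0 to 13.2 per library over 10 genes, and that of intestinal genes 10.1 to 10.8 over 6 genes. Some libraries stood apart from their genotype. On the first principal component, which held 43.3% of the variance in the wt background, the 4 bcl-11(bon144) libraries ran from -33.81 to 62.71, while the other 8 lay between -16.91 and 5.09. Replicates 2 and 3 of bcl-11(bon144) also had the highest level of sperm genes, at a mean rlog of 5.14 and 6.67 over 6 genes. Their 5 hypodermis and adult cuticle genes averaged 7.74 and 8.36, against 6.84 or lower in all other libraries of the wt background. In the daf-2 background the first component held 32.7% of the variance. There daf-2(e1370) replicate 4 lay at 40.70, with all others at 10.52 or lower, and its 7 sperm genes averaged 5.43. The 6 hypodermis and adult cuticle genes averaged 8.13 in that library and 6.95 or lower in the others of this background. Of these genes col-7 varied most, from 4.66 to 11.29 in daf-2(e1370) and from 3.90 to 10.38 in bcl-11(bon144), so it weighs heavily in these averages. The mRNA of bcl-11 itself was at 7.19 ± 0.10 in daf-2(e1370);bcl-11(bon125), 7.02 ± 0.10 in daf-2(e1370);bcl-11(bon144), against 7.08 ± 0.27 in daf-2(e1370) (SD, n = 4 each). It was at 6.15 ± 0.20 in bcl-11(bon125), 6.65 ± 0.43 in bcl-11(bon144) and 6.37 ± 0.20 in wt. Both alleles still gave a transcript, so this level does not check the labels.

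The 7 genes spanned a wide range of levels, and their order was nearly the same in all genotypes. To compare genes, the log2 of the longest annotated transcript in kb was taken from the rlog level. On that scale daf-36 was highest, at 8.69 ± 0.14 in daf-2(e1370) and 9.61 ± 0.22 in wt. The corepressor gene din-1 came next, at 7.80 ± 0.18 in daf-2(e1370) and 7.37 ± 0.21 in wt. The genes daf-12 and ncr-1 formed a middle pair whose libraries overlapped in every genotype. Per length, daf-12 was at 5.35 ± 0.26 in daf-2(e1370) and 5.19 ± 0.20 in wt, and ncr-1 at 5.45 ± 0.27 in daf-2(e1370) and 5.01 ± 0.42 in wt. A second overlapping pair, daf-9 and ncr-2, stood at the low end. Per length, daf-9 was at 3.50 ± 0.23 in daf-2(e1370) and 2.66 ± 0.14 in wt, and ncr-2 at 3.61 ± 0.12 in daf-2(e1370) and 2.65 ± 0.14 in wt. The place of dhs-16 differed between the backgrounds. It was above daf-9 and ncr-2 in daf-2(e1370), at 3.96 ± 0.32 per length, and below both in wt, at 1.78 ± 0.05. All other neighbours in this order had libraries that did not overlap.

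**Figure D1:**
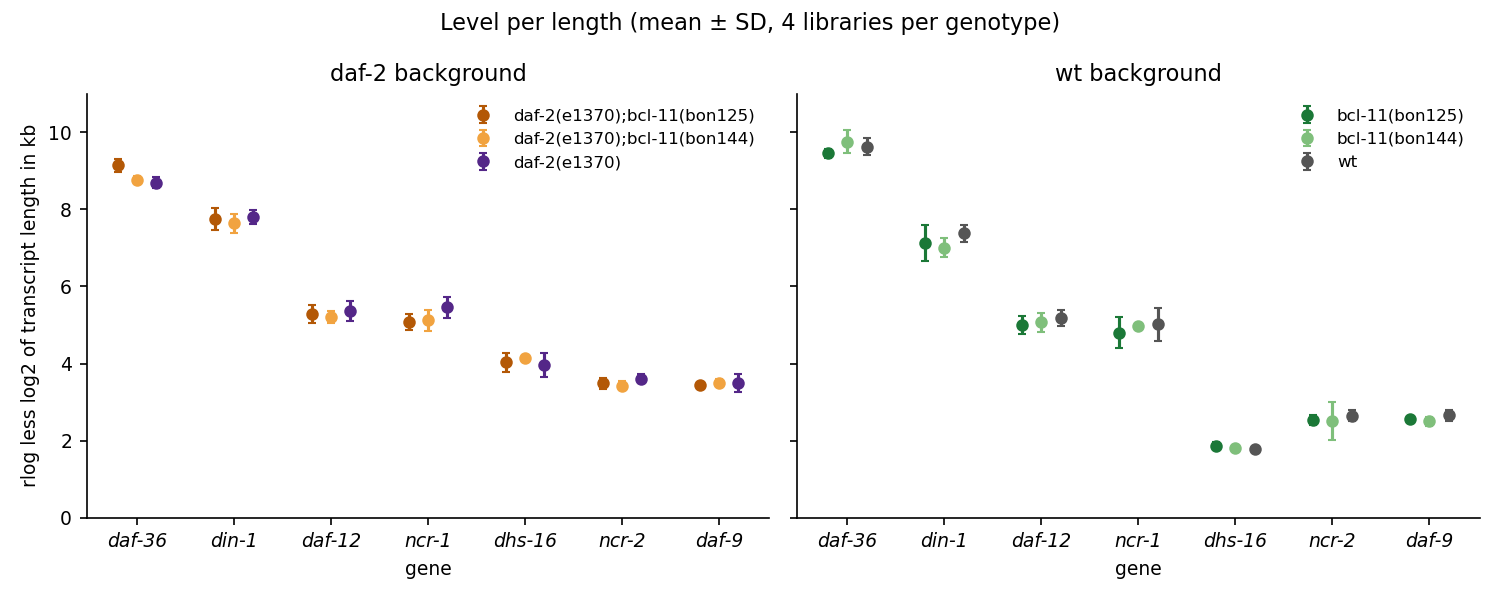
Level per length of the 7 genes, as rlog less the log2 of the longest annotated transcript in kb, in the daf-2 background (left) and the wt background (right). Points are means of 4 libraries and bars are SD. The gene daf-36 is highest in all 6 genotypes, and dhs-16 is the lowest gene only in the 3 genotypes of the wt background.

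Genes of the XXX cells, a pair of head cells that make dafachronic acid with DAF-9 and HSD-1, were hardly detected in these whole animals. The gene sdf-9, which acts in these cells, was at 0.17 in daf-2(e1370) and 0.84 in wt, eak-4 at -0.60 in daf-2(e1370) and -0.94 in wt, and eak-6 at 1.24 in daf-2(e1370) and 0.19 in wt, all as mean rlog. None of the 3 passed the filter on low levels. The daf-9 transcript is also known from the hypodermis and the spermatheca of adults, and in whole-animal RNA fewer cells of a type and less RNA per cell cannot be told apart.

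No steroid hormone gene was called in any comparison of a bcl-11 mutant with its control. In daf-2(e1370);bcl-11(bon125) against daf-2(e1370), 0 of 7 were called (0.0141% of all genes tested) and 2 of 7 had an unadjusted limma p under 0.05 (4.11% of all genes). In daf-2(e1370);bcl-11(bon144) against daf-2(e1370), 0 of 7 were called (0.0565% of all genes) and 0 of 7 had an unadjusted p under 0.05 (3.47%). In bcl-11(bon125) against wt, 0 of 6 were called (0% of all genes, as no gene passed) and 0 of 6 had an unadjusted p under 0.05 (1.55%). The study itself reports dysregulated genes for that comparison, so 0 calls by limma on rlog values do not show that no gene changed. In bcl-11(bon144) against wt, 0 of 6 were called (0.0669% of all genes) and 0 of 6 had an unadjusted p under 0.05 (7.1%). The width of the intervals differed between genes. For daf-9 the 95% interval of the log2 fold change was -0.27 to 0.18 in daf-2(e1370);bcl-11(bon125) and -0.21 to 0.23 in daf-2(e1370);bcl-11(bon144). It was -0.29 to 0.11 in bcl-11(bon125) and -0.35 to 0.05 in bcl-11(bon144). These intervals lie within the 1.5-fold limit in both directions, while that of din-1 in bcl-11(bon144), -0.81 to 0.08, does not. However, daf-9 had a mean rlog of only 4.48 in the daf-2 background and 3.58 in the wt background. At such levels rlog draws differences and spread toward 0, so the narrow intervals of daf-9 may understate its change. Groups that did not overlap were also counted: 0 of 7 steroid genes in daf-2(e1370);bcl-11(bon144) against daf-2(e1370) (2.31% of all genes), 0 of 6 in bcl-11(bon125) against wt (1.95%) and 0 of 6 in bcl-11(bon144) against wt (4.13%).

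**Figure D2:**
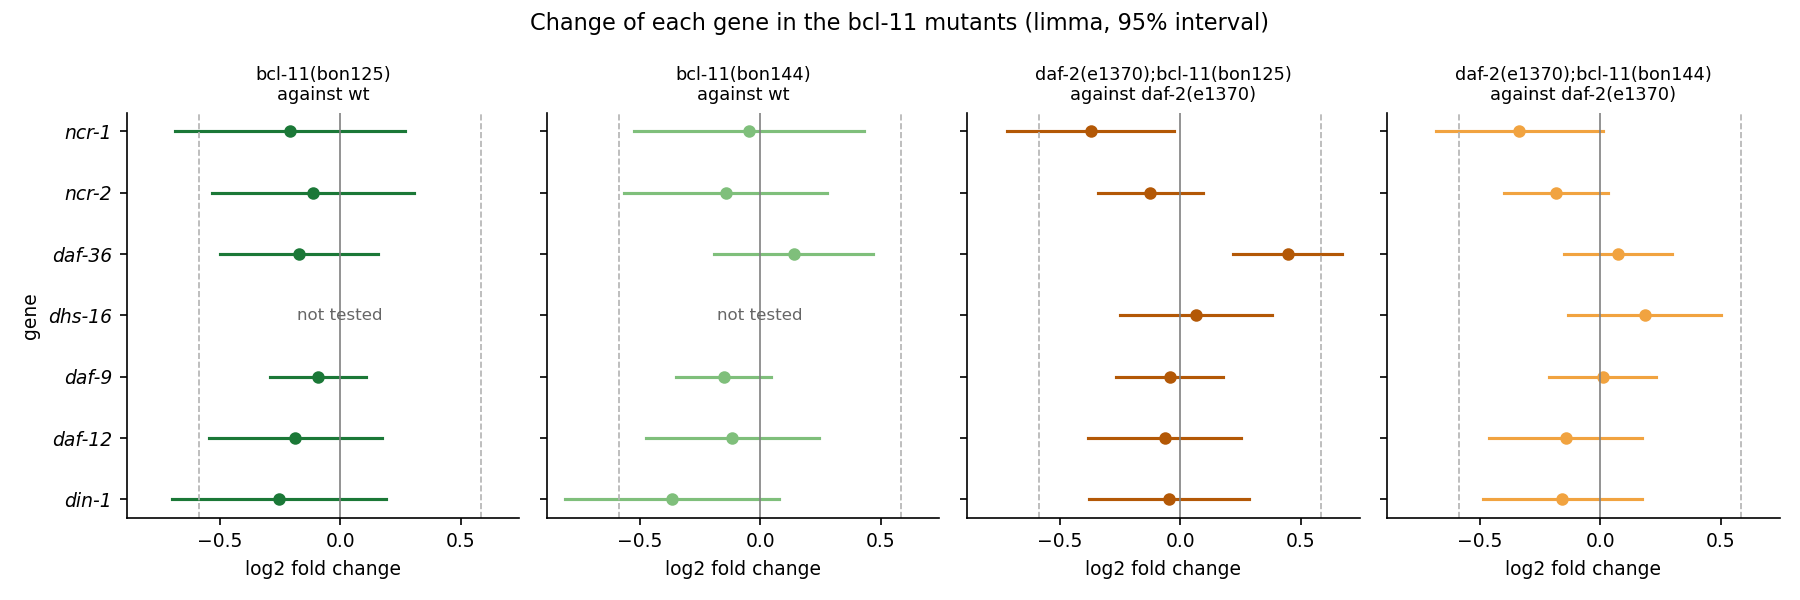
Log2 fold change of each gene (point) with its 95% limma interval (line) in the 4 comparisons of a bcl-11 mutant with its control. Dashed lines mark 1.5-fold. The interval of daf-36 in daf-2(e1370);bcl-11(bon125) runs from 0.22 to 0.67 and that of ncr-1 in the same animals from -0.72 to -0.03, and every other interval includes 0. The gene dhs-16 was below the filter in the wt background.

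Of the synthesis genes, daf-36 showed the clearest difference. It is a single-transcript gene on the minus strand of chromosome V (WBGene00007536, WBcel235 10223513 to 10225710), and its product is known mainly from the intestine. Its rlog was 9.44, 9.69, 9.78 and 9.49 in daf-2(e1370);bcl-11(bon125), against 9.16, 9.28, 8.96 and 9.23 in daf-2(e1370). All 4 double mutant libraries thus lay above all 4 of daf-2(e1370), and the double mutant was higher in 4 of 4 pairs of the same batch. It was the 1 gene of 7 without overlap in this comparison, where 1.77% of all genes had none. The log2 fold change was 0.44 (SE 0.11), a 1.36-fold higher level, with an unadjusted limma p of 0.000807, and 0.0847% of the genes tested had a smaller one. The Benjamini-Hochberg adjusted limma p over all 14169 genes was 0.681, so the difference did not pass the test. It was 0.38 to 0.50 with single libraries left out, and 0.47 without daf-2(e1370) replicate 4. Of 6 intestinal genes, 2 had a positive and 4 a negative fold change in this comparison. Sperm genes averaged 4.16 ± 0.10 in daf-2(e1370);bcl-11(bon125) and 4.50 ± 0.63 in daf-2(e1370), with a negative fold change in 7 of 7. The daf-2(e1370) mean rested on replicate 4, at 5.43, with the others at 4.08 to 4.27. The part of either list in the result was not tested.

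With the other allele the levels of daf-36 overlapped. In daf-2(e1370);bcl-11(bon144) the gene was at 9.16, 9.29, 9.12 and 9.35, which overlapped daf-2(e1370) and gave a log2 fold change of 0.07 (95% interval -0.15 to 0.30), with the double mutant higher in 4 of 4 pairs. Between the double mutants, daf-2(e1370);bcl-11(bon144) differed from daf-2(e1370);bcl-11(bon125) by -0.37 (SE 0.11) on the log2 scale, with no overlap of libraries and lower values in 4 of 4 pairs. Its unadjusted limma p was 0.00312 and its Benjamini-Hochberg adjusted limma p 0.999. In that comparison 0 of 7 steroid genes were called (0.0494% of all genes), 1 had an unadjusted p under 0.05 (3.24%), and 1 did not overlap (3.05%). In animals with normal daf-2, daf-36 was at 10.06, 9.83, 9.83 and 9.92 in bcl-11(bon125), and its values were 10.63, 9.97, 10.21 and 10.07 in bcl-11(bon144), against 10.40, 9.88, 10.03 and 10.02 in wt. All 3 genotypes overlapped there. The log2 fold changes were -0.17 (95% interval -0.50 to 0.16) for bon125 and 0.14 (-0.19 to 0.47) for bon144, and the signs were shared by 4 of 4 pairs of each. Single libraries moved both values: the bon125 change was -0.065 without wt replicate 1, and the bon144 change 0.0020 without bcl-11(bon144) replicate 1, 0.072 without wt replicate 2, 0.22 without bcl-11(bon144) replicate 2 and 0.24 without wt replicate 1.

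Whether an allele acted on a gene differently in the 2 backgrounds was tested over all 24 libraries for the 13131 genes kept in both tables. The bon125 effect on daf-36 was 0.44 in the daf-2 background and -0.17 in the wt background, of opposite sign. The signed difference was 0.61 on the log2 scale (SE 0.18, 95% interval 0.23 to 1.00). Its unadjusted limma p was 0.00290 and its Benjamini-Hochberg adjusted limma p 1.00. For this difference of bon125 effects 0 of 6 steroid genes were called (0% of all genes) and 1 had an unadjusted p under 0.05 (3.39%). For the difference of bon144 effects 0 of 6 were called (0.0609%) and 0 had an unadjusted p under 0.05 (2.72%). The bon144 effect on daf-36 differed between the backgrounds by -0.07 (95% interval -0.45 to 0.31).

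The dehydrogenase gene dhs-16 (WBGene00000979, plus strand of chromosome V, 5983745 to 5985509) did not pass the test in the double mutants. Its rlog was 4.26, 4.81, 4.37 and 4.36 in daf-2(e1370);bcl-11(bon125) and 4.56, 4.64, 4.46 and 4.61 in daf-2(e1370);bcl-11(bon144), against 4.21, 4.87, 4.20 and 4.26 in daf-2(e1370). The highest of these 12 libraries was daf-2(e1370) replicate 2, and the genotypes overlapped. The log2 fold change was 0.06 for bon125 (95% interval -0.25 to 0.38) and 0.18 for bon144 (-0.13 to 0.50). Without daf-2(e1370) replicate 2 it was 0.23 for bon125 and 0.34 for bon144, and without daf-2(e1370) replicate 3 it was 0.0028 for bon125 and 0.12 for bon144. All 12 libraries of the wt background lay between 2.14 and 2.38. With no filter on low levels, the fold changes there were 0.09 for bon125 and 0.04 for bon144, at a level where rlog draws differences toward 0.

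The cytochrome P450 gene daf-9 (WBGene00000905, plus strand of chromosome X, 6196927 to 6200823, 3 transcripts) varied little. Its rlog ran from 4.40 to 4.50 in daf-2(e1370);bcl-11(bon125) and from 4.41 to 4.62 in daf-2(e1370);bcl-11(bon144), against 4.29 to 4.83 in daf-2(e1370). Among the single mutants it ran from 3.50 to 3.61 in bcl-11(bon125), with a range of 3.37 to 3.61 in bcl-11(bon144), against 3.46 to 3.78 in wt. The double mutants lay inside the range of daf-2(e1370), and the single mutants overlapped wt. The largest of the 4 fold changes was that of bcl-11(bon144) against wt, at -0.15 (SE 0.09), lower in 4 of 4 pairs, with an adjusted p of 0.789 in limma.

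**Figure D3:**
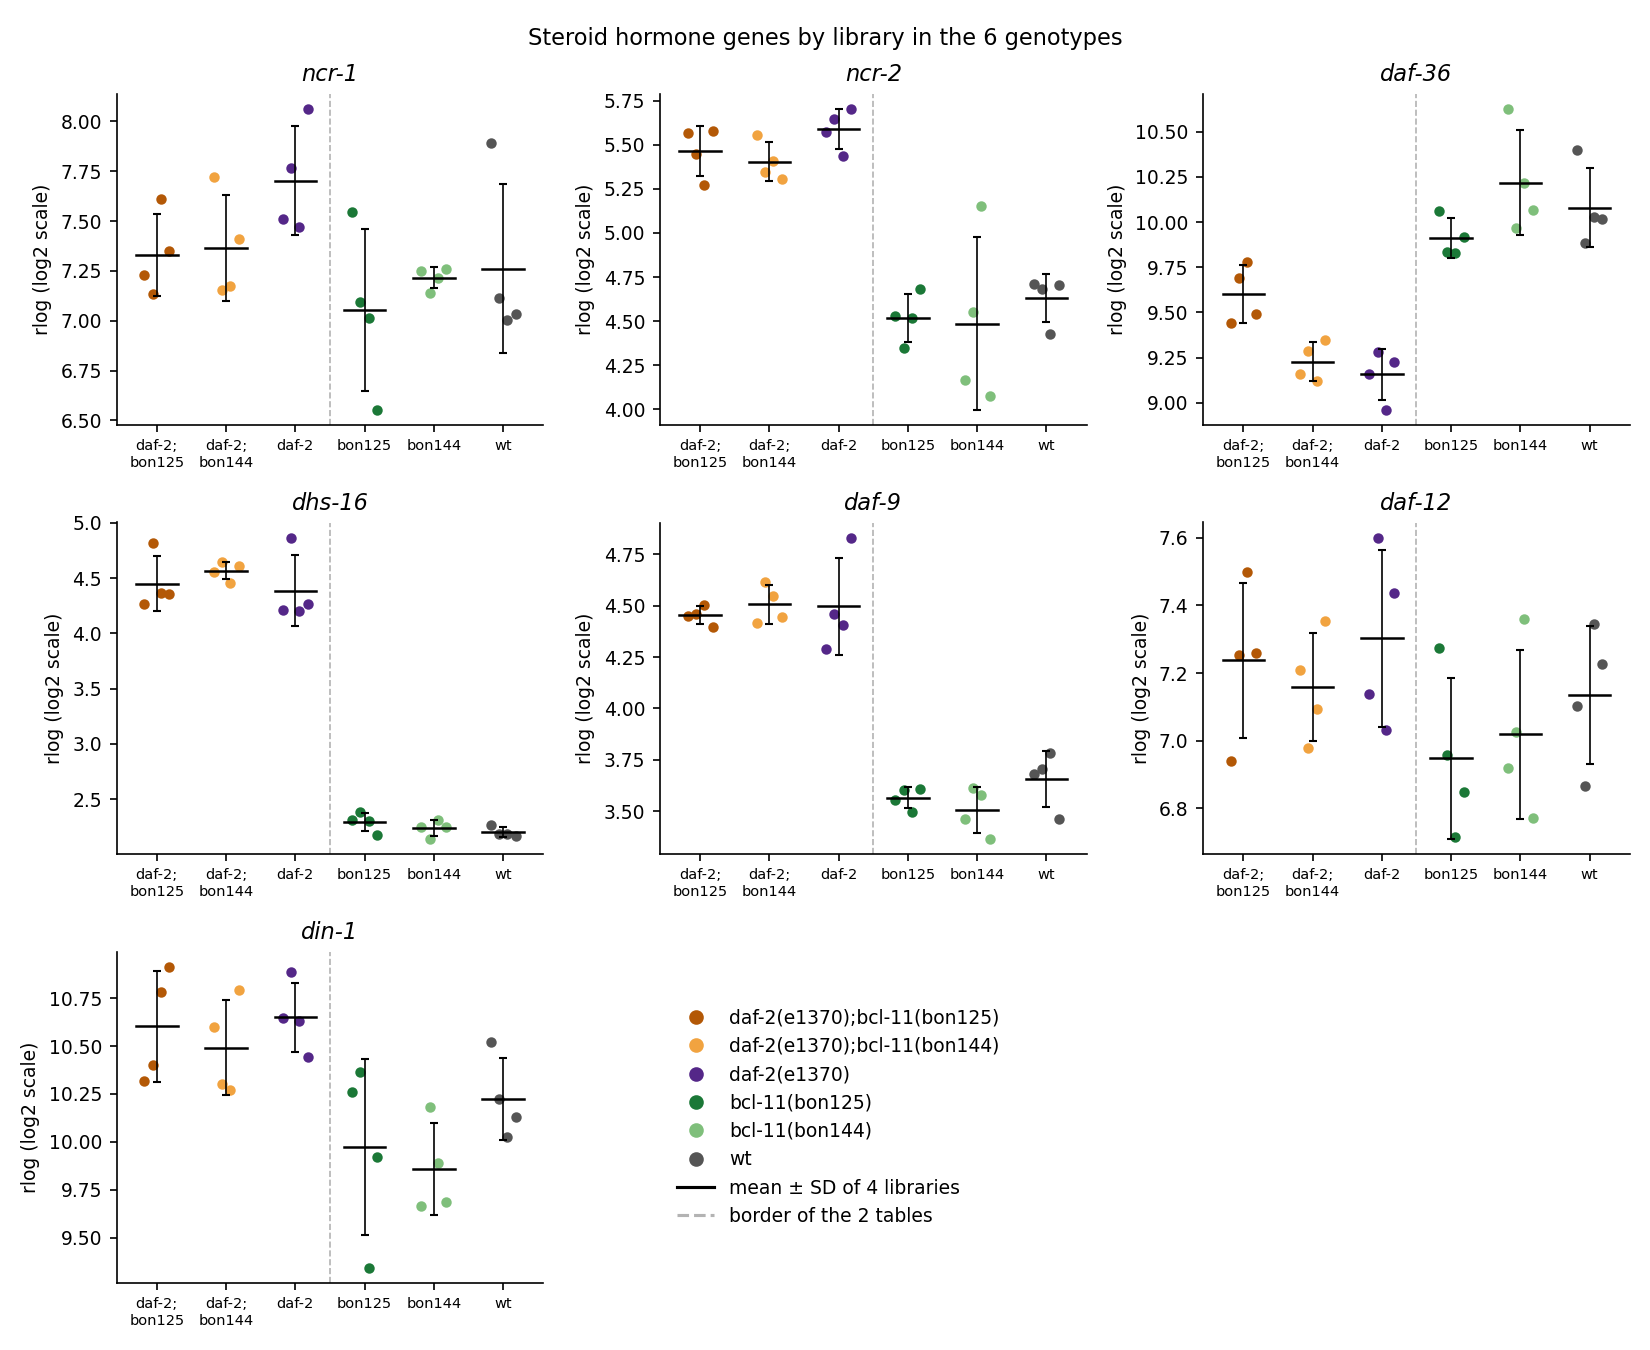
Rlog level of the 7 measured genes in each of the 24 libraries, with 1 panel per gene. Points are libraries in replicate order, horizontal lines are genotype means and vertical bars are SD (n = 4). A dashed line parts the 2 tables, which were normalised separately. The libraries of daf-2(e1370);bcl-11(bon125) lie at 9.44 to 9.78 for daf-36, above the 8.96 to 9.28 of daf-2(e1370).

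Both sterol transport genes had negative fold changes with both alleles in both backgrounds over all libraries. None passed the test, and those of ncr-1 in the wt background turned positive without 1 library. For ncr-1 (WBGene00003561, minus strand of chromosome X, 4472244 to 4488857) the rlog was 7.23, 7.13, 7.61 and 7.35 in daf-2(e1370);bcl-11(bon125) and 7.72, 7.16, 7.17 and 7.41 in daf-2(e1370);bcl-11(bon144), against 7.51, 7.76, 7.47 and 8.06 in daf-2(e1370). The highest library was daf-2(e1370) replicate 4, the one that stood apart and had more sperm and cuticle gene RNA. The part of those genes was not tested, and the genotypes overlapped. The log2 fold change with bon125 was -0.37 (SE 0.16, lower in 3 of 4 pairs), with an unadjusted limma p of 0.0369 and a Benjamini-Hochberg adjusted limma p of 1.00. With bon144 it was -0.34 (SE 0.16, lower in 3 of 4 pairs), with an unadjusted limma p of 0.0555 and an adjusted p of 1.00. Without daf-2(e1370) replicate 4 the fold change was -0.25 with bon125 and -0.22 with bon144. A single high library also stood out in the wt background, where ncr-1 was at 7.89 in wt replicate 1 and between 7.00 and 7.12 in the other wt libraries. The fold change against wt was -0.21 with bon125 and -0.05 with bon144, where the mutant was the higher one in 3 of 4 pairs. Without that library both were positive, at 0.0021 with bon125 and 0.16 with bon144.

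The second transporter gene, ncr-2 (WBGene00003562, plus strand of chromosome III, 8258345 to 8265805), was less variable in the daf-2 background. It ran from 5.27 to 5.58 in daf-2(e1370);bcl-11(bon125) and from 5.31 to 5.56 in daf-2(e1370);bcl-11(bon144), against 5.44 to 5.70 in daf-2(e1370). Each double mutant library was below the daf-2(e1370) library of its batch, though the ranges overlapped. The log2 fold change was -0.12 for bon125 (95% interval -0.34 to 0.09) and -0.18 for bon144 (-0.40 to 0.03), with adjusted p of 1.00 in limma for both. Levels of ncr-2 were lower in the wt background, at 4.17, 4.55, 5.15 and 4.08 in bcl-11(bon144), against 4.71, 4.68, 4.42 and 4.70 in wt. The range over the bcl-11(bon144) libraries, 1.07, was the widest among the 7 genes and 6 genotypes. Its highest library was replicate 3, which also had the highest level of sperm genes and of hypodermis and adult cuticle genes. The part of either list in the value was not tested. The log2 fold change was -0.14 over all libraries (95% interval -0.56 to 0.28) and -0.37 without that replicate. It was -0.0068 without replicate 4 and -0.038 without replicate 1 of bcl-11(bon144). With replicates 2 and 3 of bcl-11(bon144) both left out, a choice made after seeing the data, it was -0.51 with an adjusted p of 0.189 in limma. In bcl-11(bon125) the gene ran from 4.35 to 4.68 and gave -0.11 (95% interval -0.53 to 0.31).

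The receptor gene daf-12 (WBGene00000908, plus strand of chromosome X, 10635908 to 10666875, 10 transcripts) overlapped in all comparisons. It averaged 7.24 ± 0.23 in daf-2(e1370);bcl-11(bon125) and 7.16 ± 0.16 in daf-2(e1370);bcl-11(bon144), against 7.30 ± 0.26 in daf-2(e1370). The single mutants averaged 6.95 ± 0.24 with bon125 and 7.02 ± 0.25 with bon144, against 7.13 ± 0.20 in wt (SD, n = 4 each). All 4 log2 fold changes lay between -0.19 and -0.07. Their 95% intervals reached no lower than -0.55 and no higher than 0.25.

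The corepressor gene din-1 (WBGene00008549, minus strand of chromosome II, 11614770 to 11633609, 7 transcripts) was lowest in the single mutants. It was at 10.26, 10.36, 9.34 and 9.92 in bcl-11(bon125), and 9.67, 10.18, 9.89 and 9.69 were measured in bcl-11(bon144), against 10.52, 10.22, 10.02 and 10.13 in wt. Each bcl-11(bon144) library was below the wt library of its batch, with overlap between the groups. Its log2 fold change was -0.37 (SE 0.21), with an unadjusted limma p of 0.0972 and an adjusted p of 0.778, and -0.55 with replicates 2 and 3 of bcl-11(bon144) left out. For bcl-11(bon125) it was -0.25 (SE 0.21) and rested on replicate 3, without which it was -0.04. In the daf-2 background din-1 averaged 10.60 ± 0.29 in daf-2(e1370);bcl-11(bon125) and 10.49 ± 0.25 in daf-2(e1370);bcl-11(bon144), against 10.65 ± 0.18 in daf-2(e1370), with fold changes of -0.05 for bon125 and -0.16 for bon144.

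The alleles were also set against each other in the wt background. For bcl-11(bon144) set against bcl-11(bon125), 0 of 6 steroid genes were called (0.0446% of all genes), 0 had an unadjusted p under 0.05 (5.68%), and 0 did not overlap (2.94%). The smallest p was again that of daf-36, which was higher in bcl-11(bon144) by 0.31 (SE 0.15, 4 of 4 pairs, adjusted p of 0.882 in limma). Between the double mutants the sign was the opposite one for this gene. The median log2 fold change of the 7 steroid genes was -0.05 in daf-2(e1370);bcl-11(bon125), with 5 of 7 negative, and -0.14 in daf-2(e1370);bcl-11(bon144), with 4 of 7 negative. The medians over all genes there lay within 0.01 of 0. That of the 6 steroid genes tested against wt was -0.18 in bcl-11(bon125), with 6 of 6 negative, and -0.13 in bcl-11(bon144), with 5 of 6 negative. Over all genes it was -0.01 with bon125 and 0.01 with bon144. The mutants of a background share their control libraries.

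The largest differences of the steroid genes lay between the backgrounds. These come from 2 separately normalised tables, have no test, and are set side by side only. Among the 13131 genes kept in both tables, 41.8% had libraries of daf-2(e1370) and wt that did not overlap, and the same held for 3 of the 6 steroid genes kept in both. The genes daf-9 and ncr-2 were higher in daf-2(e1370) and daf-36 was lower. For daf-9 the means were 4.50 ± 0.23 in daf-2(e1370) and 3.66 ± 0.14 in wt, a difference of 0.84. For ncr-2 they were 5.59 ± 0.12 in daf-2(e1370) and 4.63 ± 0.14 in wt, a difference of 0.96. For daf-36 they were 9.16 ± 0.14 in daf-2(e1370) and 10.08 ± 0.22 in wt, a difference of -0.92. Differences of this size were common, as 17.3% of all genes differed by more than daf-9, 13.9% by more than ncr-2 and 14.9% by more than daf-36. With overlapping libraries, din-1 differed by 0.43, ncr-1 by 0.44 and daf-12 by 0.17. Centring both tables on their medians lowers each difference by 0.20, which turns the sign of daf-12 and of no other gene. The median of the differences gene by gene was only 0.03, and less that value daf-12 differed by 0.14. Tissue marker genes differed between daf-2(e1370) and wt as well. The median difference was 1.03 for hypodermis and adult cuticle (4 of 5 higher) and 0.59 for spermatheca (2 of 3 higher). It was -0.01 for intestine (3 of 6 higher, from -1.75 to 1.32) and -0.13 for oocyte and eggshell (1 of 10 higher). The part of tissue share or stage in the steroid gene differences was not tested.

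The bcl-11 mutants allow the same comparison with each allele. Between daf-2(e1370);bcl-11(bon125) and bcl-11(bon125), where 49.2% of all genes did not overlap, daf-9 differed by 0.89, ncr-2 by 0.95 and daf-36 by -0.31. Between daf-2(e1370);bcl-11(bon144) and bcl-11(bon144), where 38.3% did not overlap, daf-9 differed by 1.00, ncr-2 by 0.92 and daf-36 by -0.99. Thus daf-36 was lower in the daf-2 background with each allele, with the smallest difference, and a gap of only 0.05 between the libraries, with bon125. Libraries of din-1 did not overlap with bon144, where it differed by 0.635, and did so with bon125, where it differed by 0.63.

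**Figure D4:**
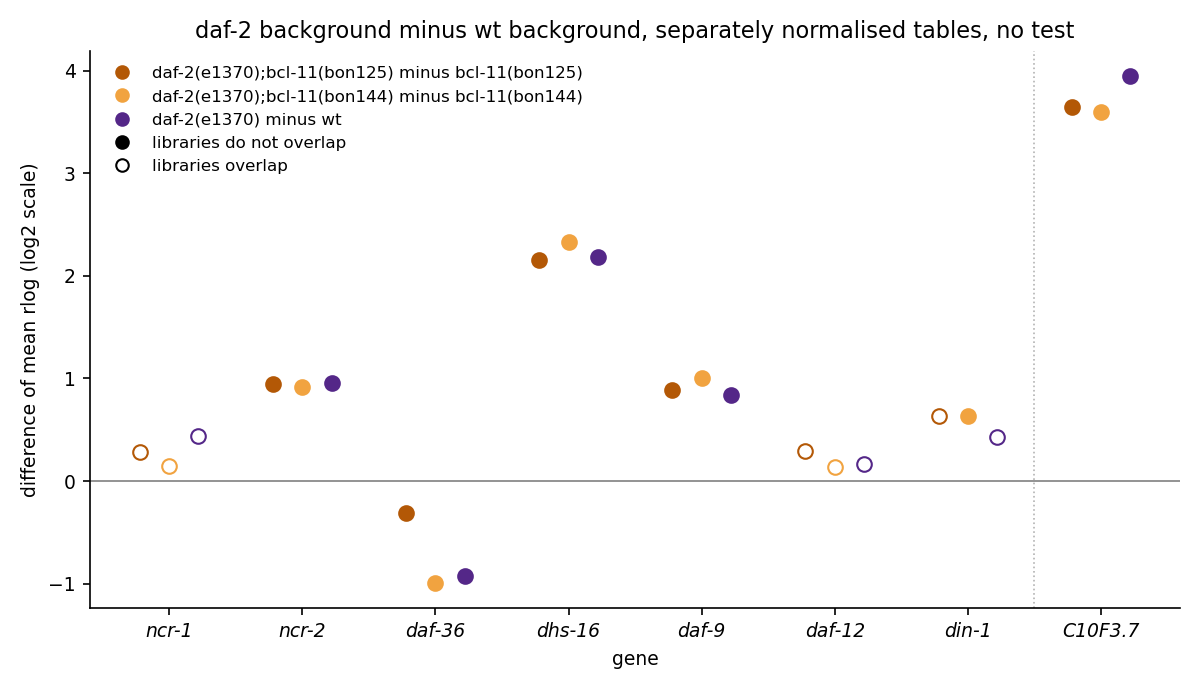
Difference of mean rlog (log2 scale) between genotypes of the daf-2 background and their partners in the wt background for the 7 genes and for C10F3.7, which overlaps dhs-16. Filled points mark differences whose libraries do not overlap. In daf-2(e1370) minus wt, dhs-16 differs by 2.18 and daf-36 by -0.92.

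The gene furthest apart was dhs-16, at 4.20 to 4.87 in daf-2(e1370) against 2.17 to 2.27 in wt. The difference of the means was 2.18, for a gene that passed the filter on low levels only in the daf-2 background, and it was 2.16 between the partners with bon125 and 2.33 between those with bon144. However, the last exon of dhs-16 overlaps that of C10F3.7, a protein-coding gene on the other strand, by 74 bases, 5.52% of the dhs-16 transcript, and the libraries do not mark strand. C10F3.7 was at 5.04, 5.98, 5.39 and 5.27 in daf-2(e1370), against 1.41, 1.51, 1.56 and 1.41 in wt, a difference of 3.95. Both genes were highest in the same library of daf-2(e1370), replicate 2, at 4.87 for dhs-16 and 5.98 for C10F3.7. The double mutants did not share this. There dhs-16 was highest in replicate 2, at 4.81 with bon125 and 4.64 with bon144. C10F3.7 was highest in replicate 1 with bon125, at 5.21, and in replicate 3 with bon144, at 5.46. Reads from the shared bases cannot be assigned to either gene, and the part of C10F3.7 in the dhs-16 difference was not tested.

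**Figure D5:**
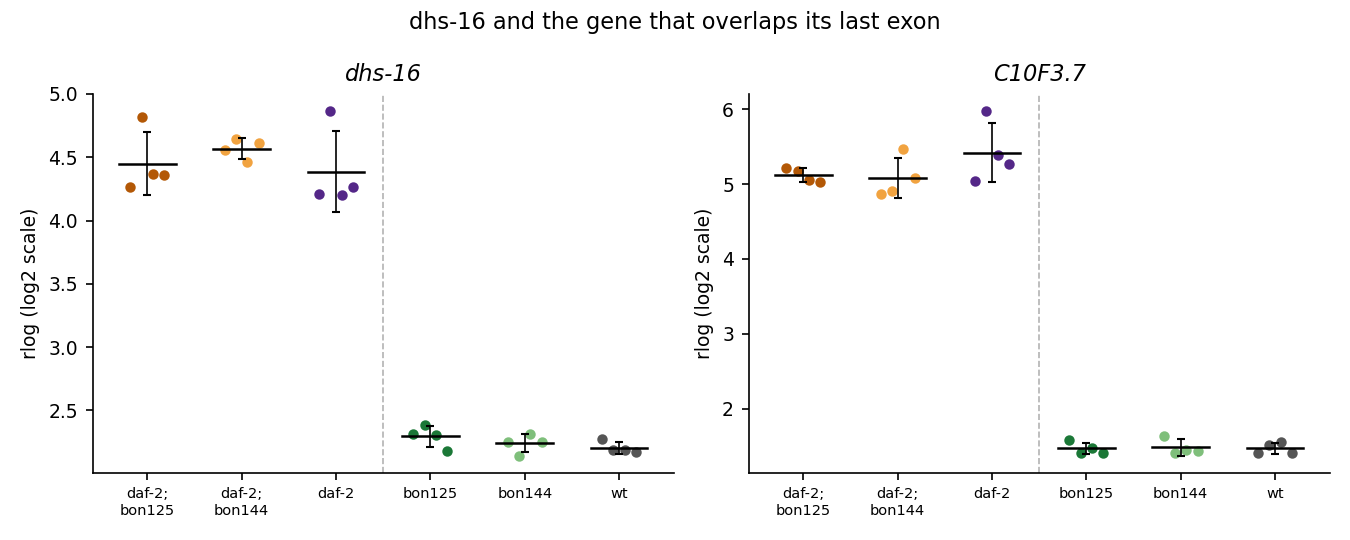
Rlog level of dhs-16 (left) and of C10F3.7 (right), which shares 74 exon bases with it on the opposite strand, in each of the 24 libraries. Lines are genotype means and bars are SD (n = 4). Both genes lie higher in all 12 libraries of the daf-2 background than in all 12 of the wt background.

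Other overlaps were small. The exons of daf-36 share 9 bases with C12D8.20, which was at or below 1.82 in every library. Those of din-1 share 150 and 54 bases with the non-coding genes F07A11.10 and F07A11.15. No steroid gene had the exact values of another gene.

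Other genes of sterol handling were not called either. Of 17 further sterol and dafachronic acid genes listed, 13 were tested in the daf-2 background and 11 in the wt background, and 0 were called in any of the 8 comparisons by limma. In daf-2(e1370);bcl-11(bon125) 0 of 13 had an unadjusted p under 0.05 (4.11% of all genes). In daf-2(e1370);bcl-11(bon144) 2 of 13 did, against 3.47% of all genes, and both were higher: scl-12 and scl-13, which encode sterol-binding secreted proteins. Against daf-2(e1370), scl-13 differed by 0.90 (SE 0.27) and scl-12 by 0.92 (SE 0.41), each with a Benjamini-Hochberg adjusted limma p of 1.00. In bcl-11(bon144) 1 of 11 was higher and 1 lower at that level (7.1% of all genes passed it), and in bcl-11(bon125) 0 of 11 (1.55%). The lower one was nhr-48, a nuclear receptor gene of the DAF-12 family, at -0.43 (SE 0.16, adjusted p of 0.622 in limma). It was at -0.34 (SE 0.16, adjusted p of 1.00 in limma) in bcl-11(bon125), where it had the smallest p of the list. The higher one was nhr-8, a nuclear receptor gene needed for normal sterol levels, at 0.33 (SE 0.15, adjusted p of 0.698 in limma).

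Side by side and without a test, all 11 of these sterol genes with a level above the filter in each background had a higher mean in daf-2(e1370) than in wt, by a median of 0.33 and without overlap in 7. Of all genes above the filter in both, 26.4% lay higher in daf-2(e1370) without overlap and 15.5% lower. The largest was strm-1, a sterol methyltransferase that diverts sterols from hormone synthesis, at 5.76 ± 0.20 in daf-2(e1370) and 3.92 ± 0.12 in wt. The acyltransferase gene mboa-1 was at 5.22 ± 0.26 in daf-2(e1370) and 3.57 ± 0.04 in wt. For stdh-1, of the steroid dehydrogenase family, the levels were 9.36 ± 0.35 in daf-2(e1370) and 8.16 ± 0.05 in wt. The megalin gene lrp-1, which acts in sterol uptake, was at 10.59 ± 0.25 in daf-2(e1370) and 9.83 ± 0.14 in wt. The P450 reductase gene emb-8 was at 10.91 ± 0.11 in daf-2(e1370) and 10.71 ± 0.12 in wt and overlapped. Over all genes 52.6% had a higher mean in daf-2(e1370). The count of 11 depends on how the tables are aligned. The medians of the tables differ by 0.20, while nhr-8 differed by 0.13 and emb-8 and let-767 by 0.20 each. The median of the differences gene by gene was 0.03, smaller than each of these. Some listed genes fell below the filter in at least 1 background and went either way: scl-12 averaged 6.32 in daf-2(e1370) and -0.37 in wt, and stdh-4, a gene of the steroid dehydrogenase family, -0.18 in daf-2(e1370) and 2.23 in wt.

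Genes that act with or beside the hormone were likewise not called. Of the 14 DAF-12 and heterochronic genes listed, 9 were tested in the daf-2 background and 8 in the wt background. Of 7 TGF-beta dauer genes 6 were tested in each, and of 12 cGMP, pheromone and cilium dauer genes 10 and 8. Calls numbered 0 in all 8 comparisons by limma. At an unadjusted p under 0.05, 1 heterochronic gene of 8 was higher and 1 lower in bcl-11(bon144), 1 TGF-beta gene of 6 was lower in each single mutant, and 0 genes of these lists passed in the double mutants against daf-2(e1370). The shares over all genes are those given above, from 1.55% in bcl-11(bon125) to 7.1% in bcl-11(bon144). The smallest adjusted limma p of these lists was 0.448, for daf-5, a SKI/SNO-like gene of the TGF-beta branch, at -0.51 on the log2 scale in bcl-11(bon144) against wt. It was at -0.39 with an adjusted limma p of 1.00 in bcl-11(bon125). Among the DAF-12 and heterochronic genes the smallest p was that of lin-14 in bcl-11(bon144), at 0.21 with an adjusted limma p of 0.663, and that of lin-28 in the other 3 mutants, at 0.16 in daf-2(e1370);bcl-11(bon125), 0.14 for daf-2(e1370);bcl-11(bon144) and -0.23 for the bon125 single mutant, with adjusted limma p of 1.00. The effect on lin-28, an RNA-binding heterochronic gene, was higher in the daf-2 background than in the wt background by 0.39 for bon125 and 0.46 for bon144. The unadjusted limma p was 0.026 for bon125 and 0.010 for bon144, each with an adjusted limma p of 1.00. In each, 1 heterochronic gene of 8 had an unadjusted p under 0.05, against 3.39% of all genes for bon125 and 2.72% for bon144. Both differences draw on the same daf-2(e1370) and wt libraries. The widest gap between daf-2(e1370) and wt in that list was in hbl-1, a hunchback-like heterochronic gene, at 9.48 ± 0.53 in daf-2(e1370) and 6.19 ± 0.50 in wt.

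The steroid genes differed in how much they varied between libraries of 1 genotype. Within genotypes of the wt background the SD was 0.34 for ncr-1, 0.32 for din-1 and 0.30 for ncr-2. The median was 0.22 over all genes tested. Among genes at a like level it was 0.25 for ncr-1, 0.22 for din-1 and 0.20 for ncr-2. Of all genes tested, 17.4% varied more than ncr-1, 20.3% more than din-1 and 24.5% more than ncr-2. The SD of ncr-2 rested on bcl-11(bon144), where it was 0.49, against 0.14 in bcl-11(bon125) and 0.14 in wt. The SD of daf-9 was 0.11, and the median of genes at a like level, where rlog narrows the spread, was 0.16. In the daf-2 background ncr-1, din-1 and dhs-16 had an SD of 0.25, 0.24 and 0.24, against a median of 0.17 over all genes tested. At a like level the medians were 0.19 for ncr-1, 0.17 for din-1 and 0.14 for dhs-16. There daf-9 had 0.15, with a median of 0.14 at a like level, while daf-36 and ncr-2 had 0.14 and 0.12.

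Across libraries the genes did not move as 1 group. Over the 15 pairs of the 6 genes kept in both tables, Pearson's r over the 12 libraries of a table ran from -0.43 to 0.66 in the daf-2 background and from -0.16 to 0.55 in the wt background. The receptor gene daf-12 and its corepressor gene din-1 had r of 0.64 and 0.45 in the 2 backgrounds. These values describe libraries that share genotypes and batches. The genes whose levels followed each steroid gene best in both tables, by the smaller of the 2 r among 13130 genes, were R10H10.3, ugt-17 and clec-51 for daf-36, with a smaller r of 0.84, 0.83 and 0.81. For din-1 they were swsn-1, lin-66 and sec-16A.2 (0.925, 0.925 and 0.924), and for daf-12 eri-12, pde-4 and let-2 (0.83, 0.82 and 0.81). For ncr-1 they were F41C6.4, catp-5 and mth-1 (0.76, 0.74 and 0.73), for daf-9 odc-1, C07E3.3 and acy-3 (0.70, 0.69 and 0.69), and for ncr-2 his-38, col-68 and T28F4.3 (0.70, 0.68 and 0.66).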

How the data were processed

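Sample labels gave the genotype, batch and replicate number of each library, and separate cultures are not stated, so p-values measure the spread between these libraries. The authors made non-stranded Smart-seq2 libraries, demultiplexed reads with bcl2fastq 2.20 and assigned them to transcripts of Ensembl 109 (WBcel235) with Kallisto 048.0. The labels and the study name different RNA kits. The deposited values are regularized log levels of genes (log2 scale), which the authors computed from normalised counts, in 2 separately normalised tables. Positions and transcript lengths come from Ensembl 115 (WBcel235). Each table was fitted with limma 3.58.1 in R 4.3.3 (genotype means, eBayes with trend, two-sided, Benjamini-Hochberg over all genes tested). Tables and plots were made in Python 3.11.15 with pandas 2.3.3 and matplotlib 3.10.9, and the fit was tested on simulated data. The 8 steroid genes are named throughout, with genes that overlap them and the 3 genes most alike in r. Other genes are examples from fixed lists, picked by p, by level or by their untested difference between the backgrounds. Not every gene with the smallest p of a list is named. Members and lists were chosen with earlier results of these data known. Labels give the replicate number as the batch, so it pairs libraries. Same-numbered libraries had a mean correlation of deviations of 0.03 to 0.24 over the 6 comparisons. Alternatives were other filters, no trend, library weights, fewer genotypes, quantile normalization, a replicate block and single libraries left out. Leaving out 2 libraries together was added after seeing the data.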

Additional observations from a re-analysis of the deposited data

Results flagged for a closer look

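Of the values above, 3 stood apart from the other libraries of their genotype, among 42 sets of 4 libraries examined, and by chance about 1 in 20 sets does. The level of dhs-16 in daf-2(e1370) replicate 2 was 4.87, with the others at 4.20 to 4.26. The level of ncr-1 in wt replicate 1 was 7.89, with the others at 7.00 to 7.12. The level of ncr-2 in wt replicate 3 was 4.42, with the others at 4.68 to 4.71.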

How the results depend on the processing

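No steroid gene was called in any of the 8 comparisons. The 187 alternatives, each 1 comparison under 1 other setting and counted over all 8 comparisons, gave no call of a steroid gene either. In the 4 comparisons of a mutant with its control the lowest adjusted limma p of a steroid gene was 0.189. It was that of ncr-2 in bcl-11(bon144) with 2 libraries left out, a choice made after seeing the data. With the replicate block, which pairs libraries of a batch, 0 were called and the fold change of daf-36 in daf-2(e1370);bcl-11(bon125) was again 0.44 (adjusted limma p of 0.877). Over all its alternatives that p ran from 0.190, with library weights, to 1.00. Over all genes the block gave 2 calls in bcl-11(bon144) against wt in place of 9, 3 between the single mutants in place of 6, and 1 in bcl-11(bon125) against wt in place of 0. Of 498 fold changes recomputed, 16 turned sign, in 7 results that lay near 0 or rested on 1 library. With library weights, daf-9 and daf-12 in daf-2(e1370);bcl-11(bon125) were at 0.036 and 0.055. With single libraries left out, the fold changes in daf-2(e1370);bcl-11(bon125) ran from -0.11 to 0.068 for daf-9, -0.15 to 0.034 for daf-12, -0.15 to 0.050 for din-1 and -0.057 to 0.23 for dhs-16. That of daf-9 in daf-2(e1370);bcl-11(bon144) ran from -0.060 to 0.12, and that of ncr-1 from -0.37 to 0.0021 in bcl-11(bon125) and -0.13 to 0.16 in bcl-11(bon144). Centring both tables on their medians moved daf-2(e1370) minus wt to -1.12 for daf-36, 0.64 for daf-9, 0.23 for din-1 and 0.76 for ncr-2. The deposited values hold no counts, so depth sets no stated limit, and rlog understates changes of weak genes such as dhs-16 in the wt background.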
